A study of Mus musculus with 6 samples.

Results

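The genes described here encode the enzymes and regulators with which a cell makes cholesterol and fatty acids. They were chosen by symbol from a list of 38 that covers the SREBP control system, the sterol route from mevalonate kinase onwards, fatty acid synthesis, desaturation and elongation, and 37 of these symbols are among the 22611 genes of the FPKM table, while *Hmgcs1* was not analysed here. The list does not name every enzyme of the sterol route. RNA was measured in the duodenal epithelium of 3 WT and 3 *Esrra*-/- mice (ESRRAKO in the sample labels), each library coming from 1 animal. The *Esrra*-/- mice carry the null allele in the germline, so that the gene is lost in every tissue, and the controls were littermates; both genotypes received high-fat diet for about 8 weeks. The breeding scheme of the study also used *Villin-Cre*ERT2 and floxed *Esrra* alleles, and whether these WT mice carried either is not given in the sources used here, nor is the age of the mice. The labels describe release of the epithelial layer with EDTA and name no step that separates crypts from villi; crypt and enterocyte markers were both present. In such bulk RNA fewer cells of a type and less RNA per cell cannot be told apart.

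Cells make cholesterol from acetyl-CoA through mevalonate, squalene and lanosterol, and make palmitate from the same precursor through acetyl-CoA carboxylase and fatty acid synthase, after which elongases lengthen the chain and desaturases add double bonds. Both routes are governed by the SREBP transcription factors, which SCAP escorts out of the endoplasmic reticulum when sterols are scarce and INSIG proteins hold back when sterols are plentiful; SREBP2 favours the sterol genes and SREBP1 the fatty acid genes. The small intestine is one of the body's larger sites of sterol synthesis, and its enterocytes also absorb dietary cholesterol and fat. ESRRA is an orphan nuclear receptor known for its control of mitochondrial genes.

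*Esrra* itself, the check of the genotype labels, stood at 49.4, 73.5 and 103.6 FPKM in WT and at 10.4, 9.42 and 8.72 FPKM in *Esrra*-/- (log2 fold change -2.92, SE 0.26, limma adjusted p = 0.0215), so the groups did not overlap. All 10 enterocyte markers had a mean above 1 FPKM, and their summed level was 38067 to 63055 FPKM in WT and 47985 to 64587 FPKM in *Esrra*-/-. The crypt markers summed to 205, 252 and 135 FPKM in WT and to 118, 184 and 54.3 FPKM in *Esrra*-/-. By the call rule given below, 3 of the 4 Paneth markers were lower, against 3.28% of all genes tested. The immune list summed to 292 to 1401 FPKM in WT and 714 to 2083 FPKM in *Esrra*-/-. Most of each sum was *Cd74*, at 1288, 1235 and 192 FPKM in WT and 634, 1224 and 1883 FPKM in *Esrra*-/-. *Ptprc* did not follow it, at 2.84, 5.10 and 2.13 FPKM against 1.98, 4.37 and 2.46 FPKM. *Cd3e* stood at 3.96, 9.99 and 4.79 FPKM against 4.17, 9.29 and 9.32 FPKM, so the sum is no measure of immune cells. Adipocyte markers, which matter here because fat tissue is rich in lipogenic RNA, summed to at most 0.615 FPKM, with *Adipoq* and *Lep* listed at 0 in all 6 libraries. The 4 hepatocyte markers summed to between 1.16 and 3.60 FPKM, and 1 of them was called lower. Transcripts of 4 Y-linked genes summed to 27.3 to 46.7 FPKM in replicates 1 and 2 of both genotypes and to 0.0487 and 0.222 FPKM in the replicate 3 libraries.

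The promoters of the sterol genes share a sequence feature that the choice of members did not use. The CCAAT box is bound by NF-Y, a factor that cooperates with SREBP at many sterol genes. The letters were found on either strand in 13 of 13 sterol synthesis members for which RefSeq promoters (GRCm38.p6, 250 bases before the start site to 50 after it) were at hand, and in 24 of 30 members in all. The same letters occur in 41.1% of 27025 genes and in 43.8% of the 7559 genes that were both tested and matched, so the box is also common elsewhere. The 8 promoters below, in the direction of the gene, were picked to give the master regulator *Srebf2*, enzymes along the route, and *Tm7sf2* and *Sc5d*. Those 2 of 35 tested members (5.71%, against 8.45% of all genes tested) had all *Esrra*-/- RNA values above all WT values. Neither met the call rule given below. Capitals mark CCAAT, or ATTGG where the box lies on the opposite strand, and in *Srebf2* also TCACCCCA.
Srebf2 (chr15:82147019-82147318, plus strand): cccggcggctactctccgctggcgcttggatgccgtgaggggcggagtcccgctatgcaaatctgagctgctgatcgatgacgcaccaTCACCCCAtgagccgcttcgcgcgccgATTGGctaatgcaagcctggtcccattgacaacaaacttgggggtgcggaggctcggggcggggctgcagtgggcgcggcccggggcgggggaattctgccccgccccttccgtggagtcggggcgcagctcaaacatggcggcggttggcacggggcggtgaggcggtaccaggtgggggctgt
Mvk (chr5:114444019-114444318, plus strand): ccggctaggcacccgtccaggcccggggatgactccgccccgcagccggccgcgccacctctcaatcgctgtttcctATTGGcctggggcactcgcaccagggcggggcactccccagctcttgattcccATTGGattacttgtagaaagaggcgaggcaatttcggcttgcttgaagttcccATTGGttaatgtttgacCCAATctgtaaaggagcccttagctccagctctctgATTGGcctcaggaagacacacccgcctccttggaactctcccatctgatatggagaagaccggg
Mvd (chr8:122443373-122443672, minus strand): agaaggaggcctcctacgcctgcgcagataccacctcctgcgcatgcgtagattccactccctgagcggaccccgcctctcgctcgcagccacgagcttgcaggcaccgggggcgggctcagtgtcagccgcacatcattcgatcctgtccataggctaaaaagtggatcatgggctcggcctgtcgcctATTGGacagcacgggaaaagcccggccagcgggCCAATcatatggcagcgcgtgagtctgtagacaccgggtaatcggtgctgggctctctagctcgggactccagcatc
Idi1 (chr13:8885356-8885655, plus strand): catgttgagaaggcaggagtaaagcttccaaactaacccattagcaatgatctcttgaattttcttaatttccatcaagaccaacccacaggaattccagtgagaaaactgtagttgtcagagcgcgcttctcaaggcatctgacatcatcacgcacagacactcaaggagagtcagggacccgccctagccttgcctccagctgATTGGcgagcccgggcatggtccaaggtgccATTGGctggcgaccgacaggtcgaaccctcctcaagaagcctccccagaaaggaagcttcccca
Lss (chr10:76531355-76531654, plus strand): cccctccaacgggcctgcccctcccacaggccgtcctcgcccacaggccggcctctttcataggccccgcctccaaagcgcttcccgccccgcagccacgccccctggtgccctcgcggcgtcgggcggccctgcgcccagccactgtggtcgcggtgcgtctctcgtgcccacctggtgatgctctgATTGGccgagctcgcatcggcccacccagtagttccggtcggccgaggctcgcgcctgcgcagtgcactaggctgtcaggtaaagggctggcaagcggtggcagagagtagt
Cyp51 (chr5:4104648-4104947, minus strand): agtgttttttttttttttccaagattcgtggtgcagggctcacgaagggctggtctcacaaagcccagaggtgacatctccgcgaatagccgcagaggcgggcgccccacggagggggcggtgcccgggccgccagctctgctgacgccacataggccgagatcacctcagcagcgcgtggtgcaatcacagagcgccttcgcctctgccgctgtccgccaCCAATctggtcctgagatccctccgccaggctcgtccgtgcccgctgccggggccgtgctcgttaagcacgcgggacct
Sc5d (chr9:42264251-42264550, minus strand): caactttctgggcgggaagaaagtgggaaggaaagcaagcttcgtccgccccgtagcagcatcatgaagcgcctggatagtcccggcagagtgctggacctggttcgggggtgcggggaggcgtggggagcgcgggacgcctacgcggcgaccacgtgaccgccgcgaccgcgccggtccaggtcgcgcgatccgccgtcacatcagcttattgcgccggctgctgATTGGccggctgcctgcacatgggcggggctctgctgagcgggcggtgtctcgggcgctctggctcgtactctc
Tm7sf2 (chr19:6067801-6068100, minus strand): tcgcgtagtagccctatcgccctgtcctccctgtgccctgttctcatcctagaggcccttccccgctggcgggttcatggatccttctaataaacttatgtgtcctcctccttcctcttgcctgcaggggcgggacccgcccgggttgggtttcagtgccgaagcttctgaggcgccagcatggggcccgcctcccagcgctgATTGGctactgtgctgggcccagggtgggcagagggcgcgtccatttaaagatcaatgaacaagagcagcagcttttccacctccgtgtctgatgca

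RefSeq lists 16 promoters for the 13 sterol genes, and 13 of the 16 hold a box: the second *Pmvk* promoter and the first and second *Dhcr7* promoters hold none, and the *Dhcr7* boxes lie in a promoter 7047 bases downstream of its first. In the promoters with a box there were 28 boxes, of which 26 lay upstream of the start site and 19 on the opposite strand, and 8 genes held 2 or more. *Mvk*, which encodes mevalonate kinase, held 5. Its 4 opposite-strand boxes began 173, 120, 67 and 14 bases before the start site, each 53 bases from the next, while the printed bases between them differ. *Mvd* carried its pair 60 and 27 bases before the start, and *Lss*, *Cyp51*, *Tm7sf2* and *Sc5d* carried a single box 62, 29, 47 and 24 bases before it. No box overlapped another motif in the capitals printed above.

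**Figure D1:**
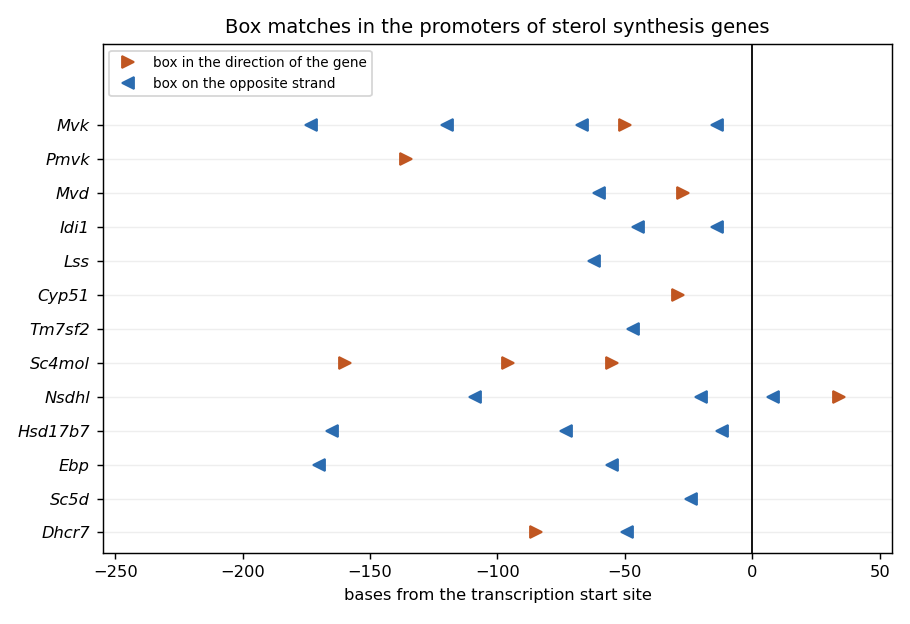
Positions of CCAAT matches in the promoters of 13 sterol synthesis genes, leaving out 3 further promoters of *Pmvk* and *Dhcr7* that hold none. The horizontal axis gives bases from the transcription start site, each row is a gene in the order of the route, and each triangle is the start of a box, pointing right where it reads in the direction of the gene and left where it lies on the opposite strand; every gene has at least 1 box upstream of the start in 1 of its promoters, and *Mvk* has 5.

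The sterol regulatory element was searched in its consensus form and as the core TCACCCCA that the consensus contains. The consensus was found in 0 of 30 members and in 0.0999% of the 27025 genes, and the core in 2 members, *Srebf2* and *Scd3*, against 1.77% of genes; a gene counts if any of its promoters holds the letters. In *Srebf2* the core began 162 bases before the start site, upstream of an opposite-strand CCAAT box in the same promoter. The E-box CACGTG was present in 7 of 30 members, against 8.09% of all genes and 12.2% of those also tested. The ESRR element TCAAGGTCA was present in 0 of 30 members against 0.466% of genes, and its core AAGGTCA in *Acacb* and *Dhcr7* (5.38% of genes). Both strands were read in each search, and a missing match says only that these letters are not in the window.

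At the level of RNA, 0 of 35 testable members were called lower and 0 were called higher in *Esrra*-/- than in WT epithelium. A call required a limma p below 0.05 together with a log2 fold change of more than 0.58 in size on the log2(FPKM + 0.1) scale; by that rule 3.28% of the 10596 genes tested were lower and 1.35% were higher. No member reached an adjusted p under 0.05, the smallest being 0.439. At an unadjusted p under 0.05 there was 1 member, *Tm7sf2*, against 10.8% of all genes. Over the alternatives this count ran from 0 to 4, the 4 (*Pmvk*, *Tm7sf2*, *Hsd17b7* and *Sc5d*, against 21.6% of all genes) with the replicate number as a block. *Tm7sf2* was not among those counted with no trend, or without any 1 of WT replicates 1, 2 and 3 or *Esrra*-/- replicates 2 and 3. It was not counted without both replicate 3 libraries either. The log2 fold changes were positive for 19 members and negative for 16, with a median of 0.04 beside 0.03 for all genes tested, and 33 of 35 lay within 0.5 of zero.

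Failing a threshold does not show that RNA levels were alike, so the intervals of the differences were compared with the same threshold. The 95% interval lay wholly within -0.58 to 0.58 for 15 of 35 members (42.9%), close to the 39.8% of all genes tested. That count depended on the fit: it was 26 of 35 (57.5% of all genes) with the replicate number as a block, 24 (54.6%) with a covariate for Y-linked transcripts, 23 (42.9%) without both replicate 3 libraries and as low as 9 with a single library left out (25.5% of all genes without *Esrra*-/- replicate 1). The SE of a member's log2 fold change ran from 0.12 to 1.14 with a median of 0.20, beside 0.19 for all genes. For the other 20 members, a change of the size of the call threshold was inside the interval in at least 1 direction. No member had all *Esrra*-/- values below all WT values, where 9.14% of all genes did, and 2 members, *Tm7sf2* and *Sc5d*, had all *Esrra*-/- values above, where 8.45% of all genes did.

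**Figure D2:**
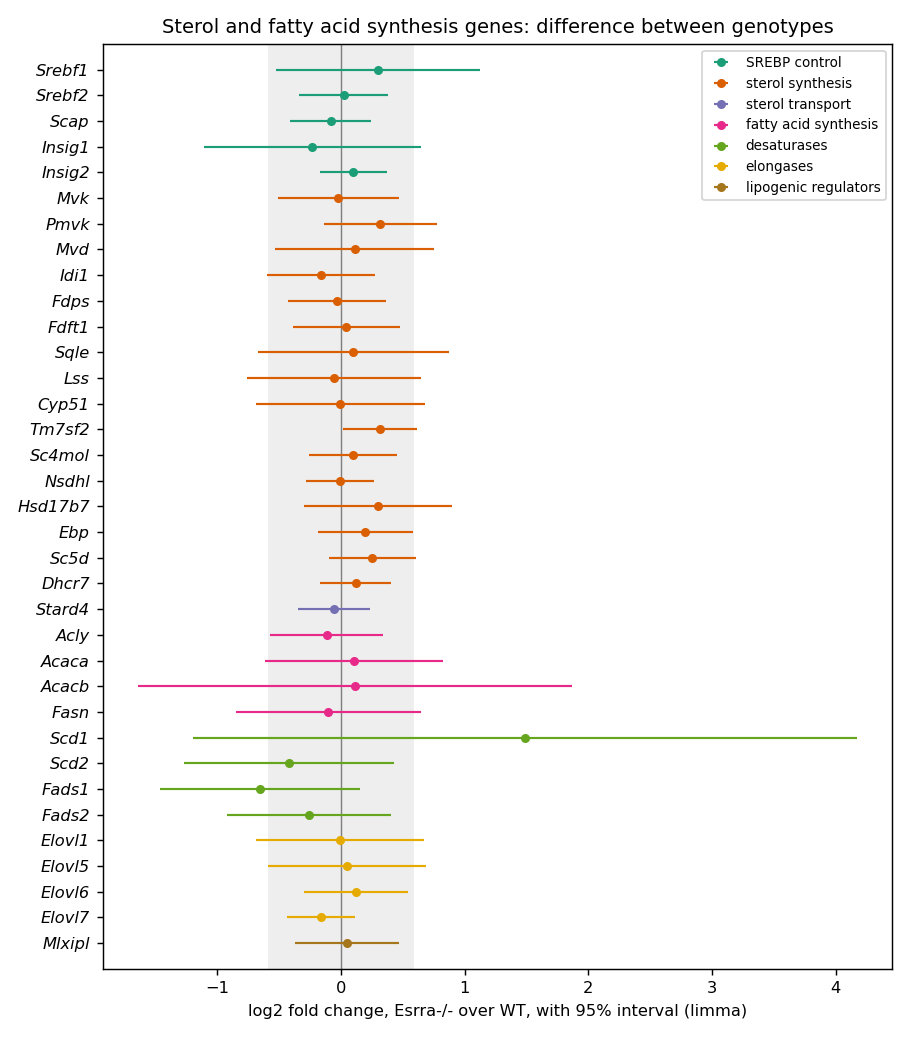
Log2 fold change of each of the 35 members tested, *Esrra*-/- over WT, with its 95% interval from limma (horizontal axis), coloured by role; the grey band spans the call threshold of 0.58 in both directions. Most points sit near zero, the intervals of *Scd1* and *Acacb* are the widest, and *Tm7sf2* is the member whose interval lies above zero.

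The SREBP control genes were spread around zero, with 0 of 5 called and a median log2 fold change of 0.02. *Srebf2*, which encodes SREBP2, stood at 23.7, 25.1 and 19.0 FPKM in WT and 23.5, 25.1 and 20.1 FPKM in *Esrra*-/- (22.6 ± 3.19 against 22.9 ± 2.51, SD, n = 3). Its log2 fold change was 0.02 with a 95% interval of -0.34 to 0.38, so a change of 0.58 in either direction lay outside it. *Scap*, the escort, stood at 6.34 to 8.19 FPKM in WT and 6.72 to 7.46 FPKM in *Esrra*-/-, and *Insig2* at 8.81 to 10.3 and 9.90 to 10.9 FPKM, and their intervals also lay inside the threshold.

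*Srebf1* and *Insig1* varied far more between animals. *Srebf1*, which encodes the SREBP1 isoforms, stood at 36.1, 25.7 and 35.3 FPKM in WT and 68.3, 35.8 and 25.0 FPKM in *Esrra*-/-. *Insig1*, an SREBP target as well as a brake on SREBP processing, stood at 64.4, 45.8 and 56.9 FPKM in WT and 85.8, 42.2 and 28.6 FPKM in *Esrra*-/-. In both genes *Esrra*-/- replicate 1 was the highest of the 6 libraries and *Esrra*-/- replicate 3 the lowest, so the *Esrra*-/- values enclosed the WT values. The log2 fold changes were 0.30 (interval -0.52 to 1.12) for *Srebf1* and -0.23 (-1.11 to 0.65) for *Insig1*. Without *Esrra*-/- replicate 1, *Insig1* met the call rule as lower, with a log2 fold change of -0.66, and *Srebf1* shifted to -0.10. Without *Esrra*-/- replicate 3 the values were 0.13 for *Insig1* and 0.63 for *Srebf1*, neither of which met the rule, so the sign of *Insig1* and of *Srebf1* depended on the library left out.

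Of the 16 sterol synthesis enzymes, 0 were called in either direction, 10 log2 fold changes were positive and 6 negative, and the median was 0.10 in a range from -0.16 for *Idi1* to 0.32 for *Pmvk*. The 9 enzymes from mevalonate kinase to lanosterol demethylase, a division of the route made after the values had been seen, had a median of -0.00. *Cyp51*, the lanosterol demethylase, stood at 25.0, 26.7 and 12.7 FPKM in WT and 20.7, 23.7 and 17.1 FPKM in *Esrra*-/-. *Sqle*, the squalene epoxidase and a known slow step of the route, stood at 18.3, 18.8 and 9.16 FPKM in WT and 18.8, 19.0 and 10.9 FPKM in *Esrra*-/-. The genotypes overlapped in both genes, and in both the replicate 3 library was the lowest of its genotype. *Fdps*, which makes farnesyl diphosphate, stood at 60.8, 63.2 and 43.6 FPKM in WT against 53.0, 54.6 and 54.1 FPKM, a log2 fold change of -0.03 (interval -0.43 to 0.36).

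The remaining early enzymes gave the same kind of picture. *Mvk* stood at 12.3, 13.5 and 8.28 FPKM in WT and 11.9, 9.23 and 11.9 FPKM in *Esrra*-/-, and *Mvd*, the mevalonate diphosphate decarboxylase, at 10.5, 10.2 and 5.45 against 9.70, 10.5 and 7.27 FPKM. *Pmvk*, the phosphomevalonate kinase between them, stood at 13.5, 12.8 and 8.40 FPKM against 15.1, 14.5 and 12.8 FPKM, with a log2 fold change of 0.32 (interval -0.14 to 0.77) and WT replicate 3 below the other 5 libraries. *Idi1*, the isopentenyl diphosphate isomerase, *Fdft1*, the squalene synthase, and *Lss*, the lanosterol synthase, had log2 fold changes of -0.16, 0.04 and -0.05. Over the 6 libraries *Idi1* ran from 19.7 to 30.1 FPKM, *Fdft1* from 11.6 to 18.0 FPKM and *Lss* from 2.77 to 5.46 FPKM, and in each the genotypes overlapped.

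The 7 enzymes that follow lanosterol demethylase had a median log2 fold change of 0.20, with 6 positive and 0 called. *Tm7sf2*, a sterol C14 reductase, stood at 12.8, 13.0 and 12.0 FPKM in WT and at 13.7, 16.7 and 16.8 FPKM in *Esrra*-/-. Every *Esrra*-/- value was above every WT value, *Esrra*-/- replicate 1 narrowly so. Its log2 fold change was 0.32 (SE 0.13, interval 0.02 to 0.62, limma p = 0.0405, adjusted p = 0.439), short of the fold threshold, and the exact permutation test gave 0.1, the smallest value that 3 against 3 allows. *Tm7sf2* lies on chromosome 19 at 6062821 to 6068373 (NCBIM37), 0.917 Mb from *Esrra* at 6985467 to 6996303, and the part of the targeted interval in its value was not tested.

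*Sc5d*, the sterol C5 desaturase, stood at 57.9, 57.5 and 62.1 FPKM in WT and 66.0, 63.7 and 83.8 FPKM in *Esrra*-/-, again without overlap, with a log2 fold change of 0.26 (interval -0.09 to 0.60, limma adjusted p = 0.574). *Ebp*, the sterol isomerase that acts just before it, stood at 46.6, 43.1 and 41.3 FPKM in WT and 47.6, 42.8 and 61.4 FPKM in *Esrra*-/-. For both genes *Esrra*-/- replicate 3 was the highest library. *Dhcr7*, which reduces 7-dehydrocholesterol, stood at 26.8 to 30.2 FPKM in WT and 29.5 to 33.8 FPKM in *Esrra*-/-, and *Sc4mol*, a C4 methyl oxidase now named *Msmo1*, at 53.3 to 58.3 and 52.0 to 70.6 FPKM. *Nsdhl*, a sterol dehydrogenase, had the smallest ratio of highest to lowest value among the members tested, at 16.5 to 19.3 FPKM over all 6 libraries, with a log2 fold change of -0.01 (interval -0.28 to 0.27). *Hsd17b7*, which completes C4 demethylation, ran from 4.85 to 10.2 FPKM and had a log2 fold change of 0.30 (interval -0.30 to 0.90), and *Stard4*, which carries sterol through the cytosol and ran from 29.7 to 35.6 FPKM, of -0.06 (interval -0.35 to 0.23).

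Much of the variation of these enzymes lay within the genotypes. Replicate 3 was the lowest library of its genotype in both WT and *Esrra*-/- for 18 of 35 members (51.4%), against 20.9% of all genes tested, and the highest in both for 3 members, *Sc4mol*, *Sc5d* and *Elovl1*, against 28.1%. Among the 9 early sterol enzymes it was the lowest in both for 7. For *Cyp51*, replicate 3 differed from the mean of replicates 1 and 2 by -1.02 in WT and -0.37 in *Esrra*-/- on the log2 scale, and for *Sqle* by -1.01 and -0.78. The median deviation of the early enzymes from their own means was 0.25 in WT replicate 1, 0.25 in WT replicate 2 and -0.50 in WT replicate 3, and for *Esrra*-/- it was 0.16, 0.20 and -0.23, while that of all genes tested lay between -0.02 and 0.04.

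Among the 7 late enzymes replicate 3 was the lowest library in both genotypes for 2 (28.6%), *Hsd17b7* and *Dhcr7*, and the highest in both for 2. Their median deviations were -0.05, -0.11 and -0.17 in WT and 0.03, -0.02 and 0.26 in *Esrra*-/-, so that WT replicate 3 was the lowest WT library for early and late enzymes alike, while *Esrra*-/- replicate 3 was low for the early enzymes and high for the late ones. The replicate 3 libraries were also those with summed Y-linked transcripts near zero, with the smallest summed crypt markers of each genotype (135 and 54.3 FPKM) and with the largest summed enterocyte markers (63055 and 64587 FPKM), and the 10 most abundant genes took 32.7% and 29.0% of their summed FPKM, against 24.9% to 27.0% in the other 4 libraries. The part of each in the level of the early enzymes was not tested, and with 1 such library in each genotype they cannot be told apart. With both replicate 3 libraries left out, an alternative added after the data had been seen, the median of the sterol synthesis members was -0.01 and 0 of them were called.

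**Figure D3:**
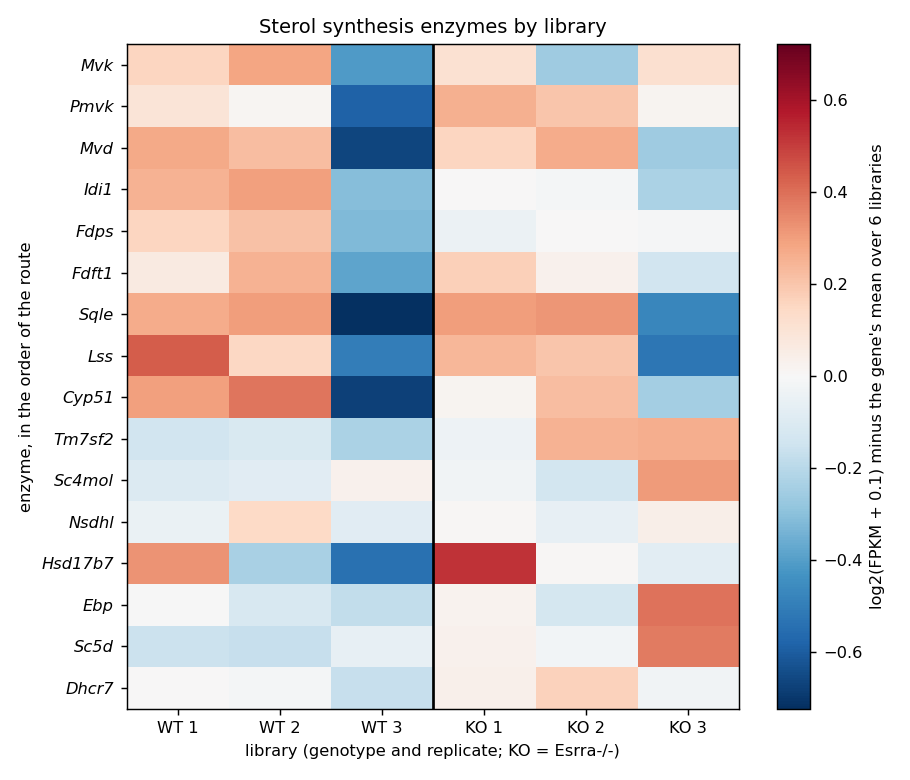
Sterol synthesis enzymes in the order of the route (rows) in the 6 libraries (columns, KO for *Esrra*-/-); colour gives log2(FPKM + 0.1) minus the gene's mean over the libraries, blue for low and red for high. WT 3 is blue from *Mvk* to *Cyp51*, KO 3 is blue for most of those rows and red for *Tm7sf2*, *Sc4mol*, *Ebp* and *Sc5d*.

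Over the 13 tested members that act in fatty acid synthesis, desaturation, elongation and lipogenic regulation, 0 were called and the median log2 fold change was -0.01. The enzymes of fatty acid synthesis had modest levels and did not separate the genotypes, with 0 of 4 called and a median log2 fold change of 0.00. *Fasn*, the fatty acid synthase, stood at 6.98, 7.31 and 3.99 FPKM in WT and 6.60, 6.91 and 3.60 FPKM in *Esrra*-/-. *Acly*, which cleaves citrate to cytosolic acetyl-CoA, stood at 10.3, 10.6 and 7.61 FPKM in WT and 9.21, 10.2 and 6.89 FPKM in *Esrra*-/-. *Acaca*, the acetyl-CoA carboxylase of fatty acid synthesis, stood at 2.88, 2.68 and 1.53 FPKM against 3.25, 2.50 and 1.84 FPKM. In each of these genes, replicates 1 and 2 of both genotypes stood together and replicate 3 of both lay below them. The log2 fold changes were -0.10 (interval -0.85 to 0.65) for *Fasn*, -0.11 (-0.57 to 0.34) for *Acly* and 0.11 (-0.61 to 0.83) for *Acaca*. *Acacb*, the carboxylase isoform tied to the control of fatty acid oxidation, stood just inside the level filter, at 1.44, 0.948 and 0.424 FPKM in WT and 0.838, 2.72 and 0.307 FPKM in *Esrra*-/-, and its interval of -1.64 to 1.87 left its difference undetermined.

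The desaturases had the widest spread, with 0 of 4 tested members called. *Scd1*, the stearoyl-CoA desaturase that makes oleate, stood at 0.751, 1.96 and 26.1 FPKM in WT and 17.3, 6.39 and 8.86 FPKM in *Esrra*-/-. The highest and the lowest value were both WT and differed 34.8-fold. The log2 fold change was 1.49 with an SE of 1.14 and an interval of -1.19 to 4.17 (limma adjusted p = 0.669), and it depended on the WT libraries. Without WT replicate 1 it was 0.45, and without WT replicate 3 *Scd1* met the call rule as higher in *Esrra*-/-, at 2.92 (limma adjusted p = 0.247, the smallest over its 14 alternatives, which reached 0.913). *Scd2* stood at 2.31 to 4.60 FPKM in WT and 1.65 to 3.48 FPKM in *Esrra*-/-, and *Scd3*, with a mean of 0.242 FPKM, was not tested. The coding sequences of *Scd1* and *Scd2* are 90.4% identical and those of *Scd1* and *Scd3* 91.5%, so their reads may be divided uncertainly between them.

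*Fads1* and *Fads2*, the delta-5 and delta-6 desaturases of polyunsaturated fatty acid synthesis, are neighbours on chromosome 19 with 81385 bases between them (NCBIM37), at 3.26 and 3.14 Mb from *Esrra*; as for *Tm7sf2*, the part of the targeted interval in their values was not tested. *Fads1* stood at 7.52, 5.35 and 4.43 FPKM in WT and 3.04, 5.99 and 2.43 FPKM in *Esrra*-/-. *Fads2* stood at 40.7, 38.2 and 24.7 FPKM in WT and 21.8, 40.9 and 25.2 FPKM in *Esrra*-/-. In both genes *Esrra*-/- replicate 2 lay among or above the WT values. *Fads1* had the most negative log2 fold change of the members, -0.65 (SE 0.35, interval -1.46 to 0.16, limma adjusted p = 0.537), and *Fads2* had -0.26 (-0.92 to 0.41). Without *Esrra*-/- replicate 2, *Fads1* met the call rule as lower at -1.02 (limma adjusted p = 0.254, in a range of 0.254 to 0.838 over its alternatives).

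**Figure D4:**
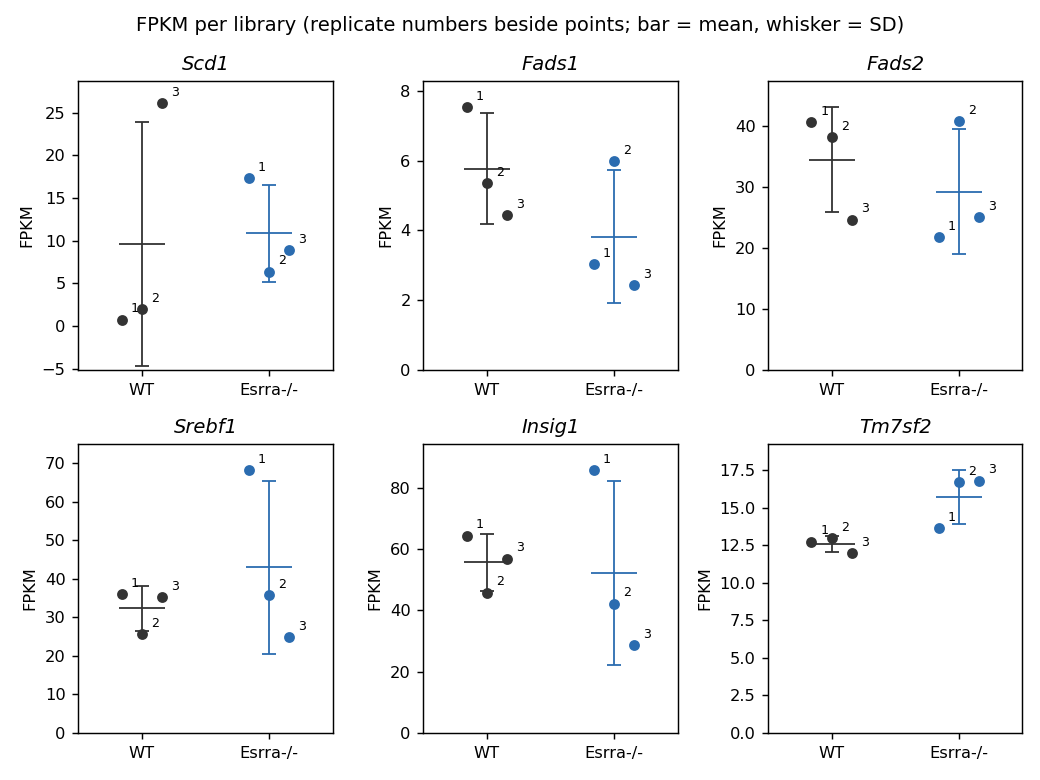
FPKM (vertical axes) in each library for 6 members, with replicate numbers beside the points, the mean as a bar and the SD as a whisker, WT in black and *Esrra*-/- in blue. For *Scd1* the WT points run from 0.751 to 26.1, for *Srebf1* and *Insig1* the *Esrra*-/- points enclose the WT points, and for *Tm7sf2* the groups do not overlap.

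The elongases were spread evenly around zero, with a median log2 fold change of 0.02 and 0 of 4 called. *Elovl1*, which lengthens saturated very long chains, had the highest mean FPKM of all members, at 92.6, 80.7 and 130 FPKM in WT and 97.9, 70.0 and 141 FPKM in *Esrra*-/-. Replicate 3 was the highest library of each genotype, the opposite of the fatty acid synthesis enzymes. *Elovl6*, which lengthens palmitate, stood at 18.8 to 28.2 FPKM in WT and 24.7 to 28.5 FPKM in *Esrra*-/-, and *Elovl5*, which lengthens polyunsaturated chains, at 5.18 to 10.8 and 6.40 to 8.81 FPKM. *Elovl7* stood at 8.78 to 10.5 FPKM in WT and 8.56 to 8.87 FPKM in *Esrra*-/-, a log2 fold change of -0.16 (interval -0.44 to 0.12).

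*Mlxipl* encodes ChREBP, the glucose-responsive activator of lipogenic genes, and stood at 75.9, 49.7 and 63.5 FPKM in WT and 60.6, 70.4 and 62.5 FPKM in *Esrra*-/-. The groups overlapped, with a log2 fold change of 0.05 (interval -0.37 to 0.47). *Thrsp*, a lipogenic protein abundant in liver and fat, was listed at 0 in 5 libraries and at 0.0566 FPKM in WT replicate 3, and was not tested. By mean FPKM over the 6 libraries, which is scaled to transcript length, the order began with *Elovl1* (102), *Sc5d* (65.2), *Mlxipl* (63.8), *Sc4mol* (57.3) and *Fdps* (54.9), and among these 5 the ranges of neighbours overlapped. The late sterol enzymes *Sc5d*, *Sc4mol* and *Ebp* (47.2) stood above *Lss* (4.15), *Hsd17b7* (7.32) and *Mvd* (8.93) in every library, and *Fasn* (5.90) and *Acaca* (2.45) were in the lower part of the order.

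Genes around these routes were read from a fixed list of other pathway genes, of which 44 were in the table and 38 were tested. By the call rule 1 was lower and 1 was higher, where 3.28% and 1.35% of all genes tested were. An adjusted p under 0.05 was reached by 0, while 7 of 38 had an unadjusted p under 0.05 (10.8% of all genes). The 1 called higher was *Fads6*, whose mean passed the filter of 1 FPKM only through the *Esrra*-/- libraries. It is also among these 7 and among the 4 all higher that follow. In 3 genes the *Esrra*-/- libraries were all lower than the WT libraries, and in 4 they were all higher (7.89% and 10.5% of the 38), close to the 9.14% and 8.45% of all genes tested. The log2 fold changes were positive for 25 and negative for 13, with a median of 0.11.

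*Fads6*, a member of the fatty acid desaturase family whose substrate is not established, was the one called higher. It stood at 0.657, 0.383 and 0.479 FPKM in WT and 3.21, 2.15 and 3.59 FPKM in *Esrra*-/- (0.506 ± 0.139 against 2.98 ± 0.748, SD, n = 3). Each *Esrra*-/- value was above every WT value. The log2 fold change was 2.34 (SE 0.31, interval 1.60 to 3.08, limma adjusted p = 0.0826), and over 14 alternatives it ran from 1.39 to 2.55 with adjusted p from 0.0486 to 0.516. The gene lies on chromosome 11 at 115140936 to 115158977 (NCBIM37). Its mean exceeded the filter of 1 FPKM only through the *Esrra*-/- libraries, the group where it was high, so its call is no independent support for a difference. With FPKM above 1 required in all 6 libraries it was not tested, and that filter is not among the 14 alternatives.

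*Fads3*, which lies 4493 bases from *Fads2* and 3.12 Mb from *Esrra*, was the one called lower, at 1.55, 2.02 and 1.78 FPKM in WT and 1.03, 1.26 and 0.994 FPKM in *Esrra*-/-. The groups did not overlap, and the log2 fold change was -0.65 (SE 0.24, limma adjusted p = 0.404). It no longer met the call rule with a pseudocount of 1 (-0.41), after quantile normalization (-0.57) or without WT replicate 2 (-0.56). Without WT replicate 3, *Esrra*-/- replicate 1 or *Esrra*-/- replicate 3 the fold stayed past the threshold (-0.65, -0.62 and -0.59) while p did not. The same held without both replicate 3 libraries (-0.59). *Hsd17b12*, the ketoacyl-CoA reductase of the elongation cycle, stood at 63.1, 59.0 and 57.7 FPKM in WT and 75.1, 78.3 and 98.1 FPKM in *Esrra*-/-, with a log2 fold change of 0.47 (SE 0.15, limma adjusted p = 0.355), below the fold threshold.

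Among the genes of SREBP processing and sterol sensing, 0 of 11 were called. *Nr1h3*, which encodes the oxysterol receptor LXR alpha, stood at 42.6, 35.7 and 53.2 FPKM in WT and 63.6, 58.0 and 73.0 FPKM in *Esrra*-/- without overlap. Its log2 fold change of 0.58 (SE 0.18, limma adjusted p = 0.356) fell just short of the threshold before rounding. It met the call rule without WT replicate 3 (0.72), *Esrra*-/- replicate 1 (0.59), *Esrra*-/- replicate 2 (0.65) or both replicate 3 libraries (0.64). *Nr1h2*, which encodes LXR beta, had a log2 fold change of 0.19 (limma adjusted p = 0.673), and *Ube2g2*, a ubiquitin-conjugating enzyme of sterol-regulated degradation, of 0.20 (limma adjusted p = 0.599). *Abca1*, an LXR target that exports cholesterol, stood at 1.77, 0.677 and 3.84 FPKM in WT and 1.27, 0.696 and 3.63 FPKM in *Esrra*-/-, which overlapped.

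Of the 9 genes that supply acetyl-CoA and NADPH, 0 were called. *Acss2*, which makes cytosolic acetyl-CoA from acetate, stood at 10.4, 9.93 and 10.1 FPKM in WT and 7.72, 7.89 and 7.84 FPKM in *Esrra*-/-. The libraries of each genotype lay close together and the groups did not overlap, where 9.14% of all genes tested had all *Esrra*-/- values below all WT values. The log2 fold change of -0.37 (SE 0.10, limma adjusted p = 0.326) was short of the fold threshold. *G6pdx*, the glucose-6-phosphate dehydrogenase that makes NADPH, stood at 32.2, 28.9 and 31.8 FPKM in WT and 35.8, 38.9 and 43.7 FPKM in *Esrra*-/-, with a log2 fold change of 0.35 (limma adjusted p = 0.411). *Mdh1*, the cytosolic malate dehydrogenase, had a log2 fold change of -0.44 (limma adjusted p = 0.531) with overlapping groups, and met the call rule without *Esrra*-/- replicate 3 (-0.62). *Me1*, the cytosolic malic enzyme, which also makes NADPH, had 0.46 (interval -0.15 to 1.07). It met the rule without WT replicate 3 (0.66), without *Esrra*-/- replicate 3 (0.66) or without both (0.85).

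Of the 7 genes of sterol esterification and export, 0 were called. *Soat1*, a cholesterol acyltransferase, stood at 2.56, 2.89 and 2.53 FPKM in WT and 1.93, 2.08 and 1.43 FPKM in *Esrra*-/-, without overlap and with a log2 fold change of -0.54 (SE 0.20, limma adjusted p = 0.414). *Soat2*, the acyltransferase of enterocytes and liver, was far more abundant, at 96.6 to 124 FPKM in WT and 122 to 155 FPKM in *Esrra*-/-, where the groups overlapped and the log2 fold change was 0.30 (interval -0.09 to 0.68). Without *Esrra*-/- replicate 2, *Soat1* met the call rule at -0.65. *Abcg8*, a subunit of the transporter that returns sterols to the lumen, had a log2 fold change of 0.40 (interval -0.23 to 1.03), and it too met the rule without *Esrra*-/- replicate 2 (0.62). The Paneth markers summed to 6870 to 14506 FPKM in WT and 1378 to 6117 FPKM in *Esrra*-/-, and the part of this difference in the values of the other pathway genes was not tested.

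**Figure D5:**
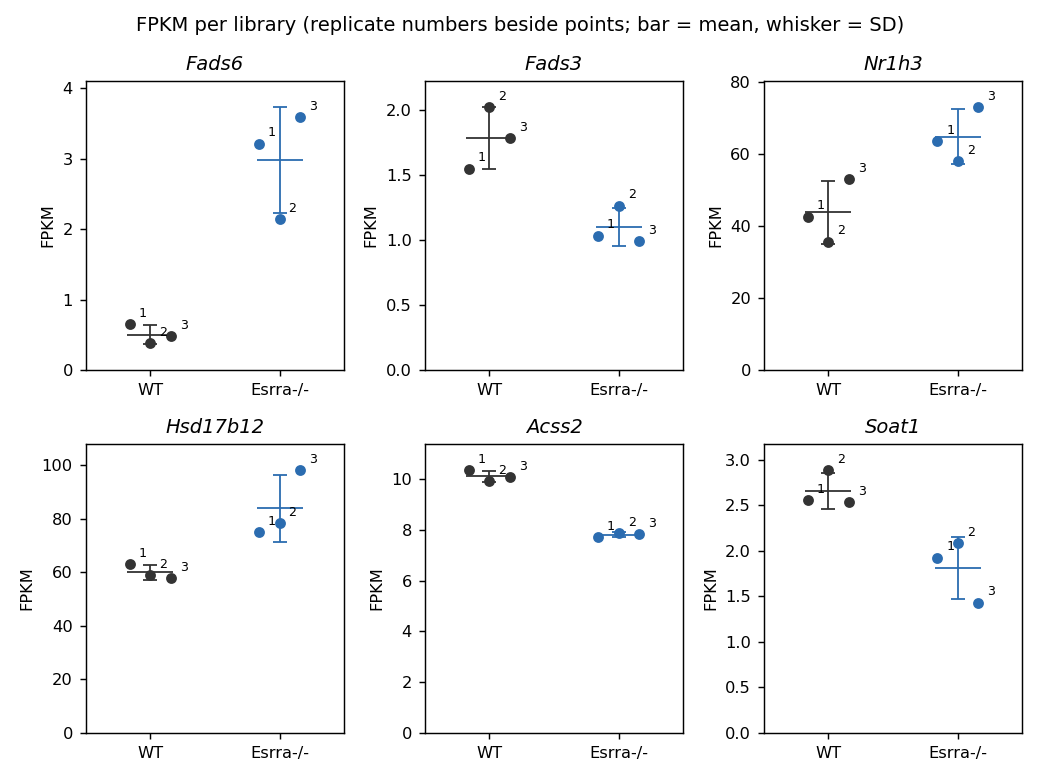
FPKM (vertical axes) in each library for 6 other pathway genes, with replicate numbers beside the points, the mean as a bar and the SD as a whisker, WT in black and *Esrra*-/- in blue. In each panel the groups do not overlap. Of the 38 genes tested, 3 were without overlap and lower and 4 without overlap and higher. These are 7.89% and 10.5%, against 9.14% and 8.45% of all genes tested. *Fads6* goes from 0.506 to 2.98 FPKM on average, and *Acss2* has the tightest groups.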

How the data were processed

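Duodenal epithelial RNA of 6 mice, 3 per genotype, was sequenced after library preparation with a TruSeq kit. Per the labels and the methods, reads were checked with FastQC (0.11.3 in the submitters' processing notes), quantified with Kallisto (2.1.0) on mm9 and turned by the authors into FPKM with DESeq2 (2.2.1). The gene annotation used is not given in the sources used here. The deposited FPKM values are the unit of every result. FPKM keeps no depth, so the number of reads behind a value is unknown. The authors' comparison table, which holds mean counts, log2 fold changes, standard errors, test statistics and p-values, was not used.

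From the FPKM, log2(FPKM + 0.1) was computed for genes with a mean above 1 FPKM and fitted with limma (3.58.1, lmFit and eBayes with a trend, R 4.3.3) over all 6 libraries with no covariate, two-sided, and p was adjusted by the Benjamini-Hochberg method across the 10596 genes that passed. Such fold changes understate the change of low genes. Intervals are 95% limits from the same fit, and errors are SD. The fit was tested on simulated data first. The members and lists were chosen with earlier results of these data known. Named were all members, *Esrra* and the 3 other pathway genes with the smallest p in each of their groups; *Abca1*, *Me1*, the division of the sterol route and the promoters printed were chosen after values were seen. Promoters came from RefSeq (GRCm38.p6), with 30 of 37 members matched, *Sc4mol* as *Msmo1*; gene positions and coding sequences came from GENCODE M1 on NCBIM37. The alternatives tried were another pseudocount, other filters, scalings and thresholds, no trend, a replicate block, a covariate for Y-linked transcripts and leaving out libraries.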

Additional observations from a re-analysis of the deposited data

How the results depend on the processing

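Over 523 combinations of a member and an alternative, 519 stayed on the same side of the call rule and 4 met it (3 genes). The sign of the log2 fold change was the same in every alternative for 14 members and differed in at least 1 for the other 21. Members called lower ranged from 0 to 1 with single libraries left out (*Insig1* at -0.66 without *Esrra*-/- replicate 1, *Fads1* at -1.02 without *Esrra*-/- replicate 2), and members called higher from 0 to 1 (*Scd1* at 2.92 without WT replicate 3). *Scd1* was also the 1 member called higher without both replicate 3 libraries (3.01), an alternative chosen after seeing the data, and *Tm7sf2* the 1 called with no fold change minimum. In no alternative did a member reach an adjusted p under 0.05, the smallest being 0.203. The median log2 fold change ran from -0.09 to 0.18 for the sterol synthesis members and from -0.24 to 0.07 for the 13 members of fatty acid synthesis, desaturation, elongation and lipogenic regulation with a library left out. The number of members with an interval inside the threshold ran from 9 to 26.

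Over all genes, the 348 lower and 143 higher became 528 and 277 with no filter on low values, 2 and 2 at an adjusted p under 0.05, 688 and 456 at an unadjusted p under 0.05 with no fold change minimum, and 252 to 537 and 146 to 214 with a library left out, the 537 without *Esrra*-/- replicate 2. *Esrra* ran from -3.19 to -2.66 with a library left out; its adjusted p was 0.0206 to 0.186 over all alternatives.

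With the replicate number as a block, 441 genes were lower and 192 higher, and 0 members were called in either direction; 26 members, against 57.5% of all genes, then had an interval inside the threshold. To see whether same-numbered libraries varied together, each library was taken as its deviation from the mean of its genotype, gene by gene. These deviations correlated at 0.01, 0.26 and 0.38 for replicates 1, 2 and 3. *Esrra*-/- replicates 2 and 3 correlated best with the WT library of their own number. *Esrra*-/- replicate 1 correlated best with WT replicate 2 (0.03), so the numbers were not taken to pair the mice. FPKM values give no depth, and 3 libraries per genotype leave an SE of 0.20 for the median member.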
